A study of Mus musculus with 12 samples.

Results

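The 9 genes followed here, Acsl1, Gpd1, Pck1, Gpam, Agpat2, Lpin1, Mogat1, Dgat1 and Dgat2, encode enzymes with which adipocytes build triglyceride. They were taken by gene symbol from the 55281 genes of the table of all genes, and each symbol matched 1 gene. No measured value entered this rule, but the list was drawn up with earlier results of these data known. In the glycerol phosphate route, a fatty acid is first activated to acyl-CoA, glycerol 3-phosphate is acylated, then lysophosphatidic acid is acylated to phosphatidic acid, a phosphatase gives diacylglycerol, and a last acylation gives triglyceride. A shorter route starts from monoacylglycerol. Fat cells make their glycerol 3-phosphate from dihydroxyacetone phosphate, which comes from glycolysis or, in glyceroneogenesis, from pyruvate and its relatives, and several of these genes are known targets of PPARγ, the nuclear receptor that directs adipocyte differentiation.

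The study measured polyadenylated RNA of gonadal white adipose tissue (GWAT) from male mice by bulk sequencing. All mice carried Hoip fl/fl, that is, floxed alleles of Rnf31, the gene of the ubiquitin ligase HOIP. HoipA-KO mice also carried AdipoQ.Cre, a Cre recombinase driven by the adiponectin promoter, which acts in mature adipocytes, and WT littermate controls were Hoip fl/fl without the Cre. From 6 weeks of age they received a control diet (CD; 14% fat per the labels) or a high-fat diet (HFD; 60% fat) for 16 weeks, and they were 22 to 24 weeks old at harvest. Each of the 4 groups had 3 libraries, and each library held the RNA of 3 pooled mice, so every error and p-value below is between pools. Totals lay between 30513500 and 60540260 counts per library. The study left WT CD replicate 3 out of its comparisons. The main values therefore rest on 11 libraries, with WT CD at n = 2, and those over all 12 libraries stand beside them. Levels are CPM, the counts of a gene scaled to a common library total and normalized by the trimmed mean of M values (TMM) over all 12 libraries, and genes were tested by the quasi-likelihood method of edgeR, with p-values adjusted over all genes (Benjamini-Hochberg) and calls made at an adjusted p below 0.05. At these depths 3 counts, taken as the floor of a library, came to between 0.0533 and 0.0996 CPM, and the lowest count of any of the 9 genes in the 11 libraries was 15.

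The content of the libraries was checked first. All 8 adipocyte markers (Adipoq, Plin1, Plin4, Cidec, Lipe, Acvr1c, Adrb3 and Trarg1) were above 0 in every library. Rnf31 itself, the targeted gene, had 20.8, 21.2 and 12.8 CPM in WT CD, 18.1, 17.7 and 21.8 in HoipA-KO CD, 18.5, 18.2 and 20.0 in WT HFD, and 20.1, 18.8 and 22.5 in HoipA-KO HFD. These values overlapped between the genotypes, with Rnf31 log2 fold changes of -0.08 on CD and 0.13 on HFD (adjusted p = 0.654 and 0.491), so counts over the whole gene in whole tissue gave no check of the genotype labels. Some libraries stood apart. WT CD replicate 2 had a summed level of 14986 CPM over 7 epididymal epithelium markers, 12605 of them from Crisp1, a sperm-binding protein, and HoipA-KO HFD replicate 1 had 1312 CPM, while the other libraries had between 0.133 and 97.6 CPM. WT CD replicate 3 had 10039 CPM over 8 sperm and testis genes (Prm1, Prm2, Tnp1, Tnp2, Acrv1, Odf1, Akap4 and Ldhc, chosen after values were seen), WT CD replicate 2 had 343 CPM, and none of the remaining 10 exceeded 17.8 CPM. Across genes, log2 levels of WT CD replicates 1 and 2 correlated with Pearson's r of 0.878 those of the pairs with replicate 3 with 0.775 and 0.806, and those of replicates in the other groups with 0.951 to 0.984.

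**Figure D1:**
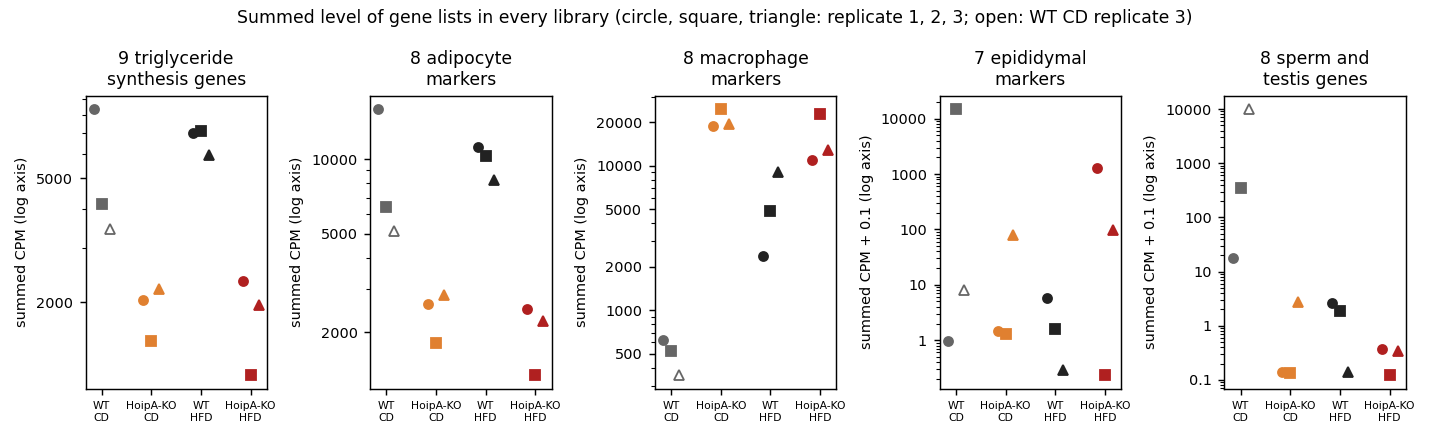
Summed CPM (log axis) of the 9 triglyceride synthesis genes, of adipocyte, macrophage and epididymal markers, and of sperm and testis genes in each of the 12 libraries (circle, square and triangle for replicates 1, 2 and 3, open for WT CD replicate 3; 0.1 CPM was added in the last 2 panels). The 9 genes and the adipocyte markers sit lower in the 6 HoipA-KO libraries, and the epididymal and sperm transcripts stand out in WT CD replicates 2 and 3.

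The sequences before the annotated start sites of these genes were read as well. Which start the transcripts use in GWAT was not measured, since the counts are per gene. RefSeq (GRCm38.p6) gave 8 promoter entries for 6 of the 9 genes (Acsl1, Agpat2, Gpam, Lpin1, Mogat1 and Pck1). They were searched on both strands, over the 250 bases upstream of the start, for the nuclear receptor core AGGTCA, the core TGACG of the cAMP response element, the E-box CACGTG, the CCAAT box CCAAT and the TATA box TATAAA. The first of these was in 14.0% of all 32851 promoters of the same length, the others in 17.8%, 6.02%, 33.8% and 12.4%. Pck1 and Mogat1 are shown because their transcripts had the lowest HoipA-KO to WT ratios of the 9, and Gpam and Lpin1 because they hold matches to the first or the second motif. Capitals mark matches to AGGTCA and TGACG, the latter printed as CGTCA where it is on the other strand.
Pck1, chr2:173152823-173153072, plus strand: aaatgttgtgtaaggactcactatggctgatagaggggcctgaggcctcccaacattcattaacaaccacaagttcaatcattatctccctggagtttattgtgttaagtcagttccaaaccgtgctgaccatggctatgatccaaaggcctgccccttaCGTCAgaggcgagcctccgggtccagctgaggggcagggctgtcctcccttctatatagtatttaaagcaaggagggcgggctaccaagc
Mogat1, chr1:78510810-78511059, plus strand: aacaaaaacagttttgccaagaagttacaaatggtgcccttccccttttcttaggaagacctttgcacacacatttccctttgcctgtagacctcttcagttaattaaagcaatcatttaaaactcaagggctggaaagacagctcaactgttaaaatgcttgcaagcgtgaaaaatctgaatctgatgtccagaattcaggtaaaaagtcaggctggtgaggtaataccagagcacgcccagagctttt
Gpam, chr19:55099478-55099727, minus strand: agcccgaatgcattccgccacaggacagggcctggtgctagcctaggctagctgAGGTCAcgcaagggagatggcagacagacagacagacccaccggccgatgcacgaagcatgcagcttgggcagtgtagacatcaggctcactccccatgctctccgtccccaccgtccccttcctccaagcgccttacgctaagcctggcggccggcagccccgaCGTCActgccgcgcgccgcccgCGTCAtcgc
Lpin1, chr12:16610967-16611216, minus strand: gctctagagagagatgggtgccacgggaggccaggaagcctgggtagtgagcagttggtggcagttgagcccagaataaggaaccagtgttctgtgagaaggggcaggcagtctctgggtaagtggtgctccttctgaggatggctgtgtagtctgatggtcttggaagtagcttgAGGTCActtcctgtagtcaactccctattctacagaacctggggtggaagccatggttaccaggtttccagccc
In Pck1 the match to TGACG lay 90 to 86 bases before the start, and in this Gpam promoter there were matches at 31 to 27 and 9 to 5 bases before the start beside AGGTCA at 196 to 191 bases. The other Gpam promoter (chr19:55127239-55127488), which lies directly before the first base of the gene, held neither AGGTCA nor TGACG. Its only match was CCAAT, at 74 to 70 bases before the start. In Lpin1 AGGTCA lay 74 to 69 bases before the start. The Mogat1 window held none of the 5 motifs, as did those of Agpat2 and of the upstream Acsl1 promoter, and no window of the 6 genes held CACGTG or TATAAA. The downstream Acsl1 promoter held CCAAT at 172 to 168 and 49 to 45 bases before the start. With 8 windows, the matches were not tested against the shares of all promoters. A match of this kind is a description of letters and not of a bound site. Positions count from the RefSeq start. By the gene coordinates given below, the Pck1 and Mogat1 windows reach past the first base of the gene, and the printed Gpam window lies inside the gene.

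Over the 11 libraries all 9 genes were lower in HoipA-KO than in WT GWAT on both diets. On CD 9 of 9 passed the test, where 18.8% of the 18427 genes tested were called lower, and on HFD 9 of 9 passed, where 7.62% were called lower. Their median log2 fold change was -1.58 on CD and -1.78 on HFD, beside medians of -0.06 and 0.06 over all genes tested. Over the 11 libraries each HoipA-KO library lay below each WT library of the same diet for all 9 genes, as it did for 27.4% of all genes on CD and 23.7% on HFD. With all 12 libraries 7 of 9 were called lower on CD (19.1% of all genes tested), with Dgat2 and Gpd1 lost, and 5 of 9 on HFD (2.25% of all genes), with Agpat2, Dgat1, Gpam and Gpd1 lost. In whole tissue, fewer adipocytes and less RNA per adipocyte cannot be told apart.

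The counts of calls also depended on single libraries. Leaving out WT CD replicate 1 or 2 left 1 WT CD library. In such fits every comparison with WT CD takes its spread from the other groups alone, and its calls are no check of that group. Without WT CD replicate 1, the WT CD library with the most adipocyte marker RNA, 4 of 9 were called on CD (20.2% of all genes called lower), and they were Gpam, Lpin1, Mogat1 and Pck1. Without HoipA-KO CD replicate 1 or 2 or WT HFD replicate 2 the call was lost on CD for Dgat2 and Gpd1 (12.1%, 12.5% and 16.0% of all genes called lower). On HFD 3 of 9 were called without HoipA-KO HFD replicate 2 (1.35% of all genes called lower), 4 without HoipA-KO HFD replicate 3 (2.42%), and 4 without WT HFD replicate 1 (1.30%) or without WT HFD replicate 2 (1.60%), each time including Mogat1, Pck1 and Acsl1. Without WT CD replicate 2, the library with epididymal RNA, only WT CD replicate 1 was left in its group. There the log2 fold changes of all 9 genes stayed below 0, with -1.29 for Gpd1 and -5.44 for Mogat1 on CD. Without HoipA-KO HFD replicate 1, 9 of 9 were called on either diet (22.1% and 7.21% of all genes called lower on CD and HFD). On HFD 10.5% of all genes were called lower without WT CD replicate 1. No direction between the genotypes changed in any of these fits.

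**Figure D2:**
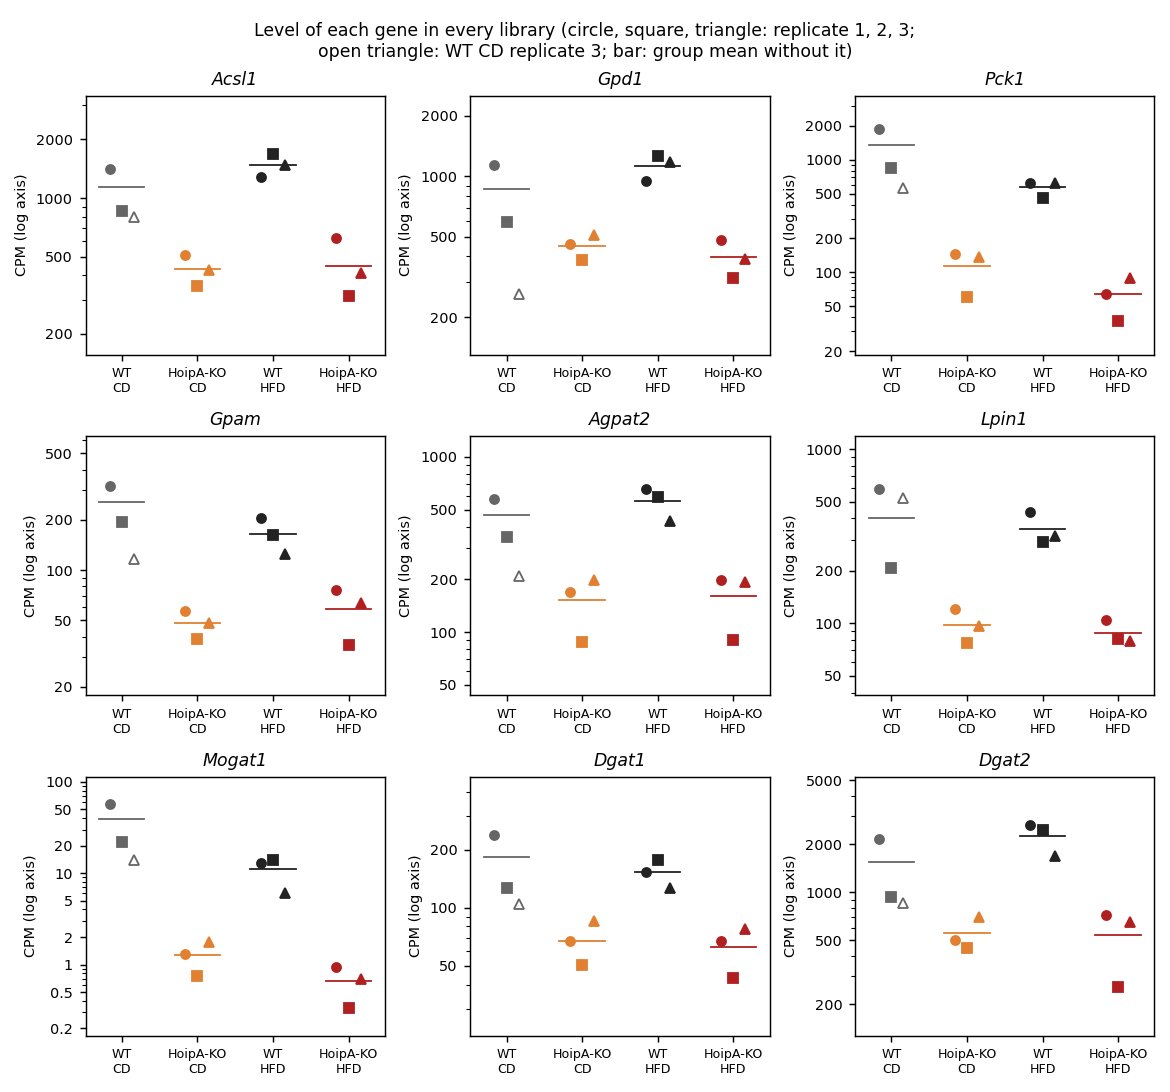
CPM (log axis) of each of the 9 genes in every library of the 4 groups, with the replicates as circle, square and triangle and the group mean as a bar; the open triangle is WT CD replicate 3, which the mean leaves out. In all panels the HoipA-KO libraries lie below the WT libraries of the same diet, except that WT CD replicate 3 lies below the HoipA-KO CD libraries for Gpd1.

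Fatty acid activation was represented by Acsl1 (chr8:46471037-46536051, plus strand in GRCm38), the long-chain acyl-CoA synthetase that supplies acyl-CoA in fat cells. Replicates 1, 2 and 3, always in this order, had Acsl1 levels of 1409, 860.2 and 798 CPM in WT CD and 512, 353 and 426 CPM in HoipA-KO CD. On HFD the Acsl1 levels were 1289, 1681 and 1472 CPM in WT and 622, 313 and 411 CPM in HoipA-KO. The highest HoipA-KO library was thus below the lowest WT library on each diet. The log2 fold change of Acsl1 was -1.36 ± 0.31 (SE) (adjusted p = 0.008) on CD and -1.71 ± 0.29 (adjusted p = 0.0115) on HFD.

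Glycerol 3-phosphate supply took in Gpd1 and Pck1. Gpd1 (chr15:99717515-99725005, plus strand) encodes the cytosolic glycerol 3-phosphate dehydrogenase that reduces dihydroxyacetone phosphate. Gpd1 levels were 1143, 592 and 260.1 CPM in WT CD and 462, 383 and 512 CPM in HoipA-KO CD, so that WT CD replicate 3 lay below all HoipA-KO CD libraries. On HFD they were 949.6, 1259.7 and 1177 CPM in WT and 485, 312 and 390.4 CPM in HoipA-KO, with no overlap. Gpd1 differed by -0.90 ± 0.29 on the log2 scale (adjusted p = 0.0344) on CD, the smallest change of the 9 on that diet, and by -1.50 ± 0.27 (adjusted p = 0.014) on HFD. The call on CD was not stable, since the log2 fold change was -0.35 without WT CD replicate 1 (adjusted p = 0.348) and -0.56 over all 12 libraries (adjusted p = 0.325), and it turned to 0.12 with WT CD replicates 2 and 3 (adjusted p = 0.803).

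Pck1 (chr2:173153048-173159273, plus strand) encodes the cytosolic phosphoenolpyruvate carboxykinase, the committed step of glyceroneogenesis in fat. It had 1855, 852 and 557 CPM in WT CD, and 146, 60.3 and 137 CPM in HoipA-KO CD. On HFD Pck1 had 626, 459 and 615 CPM in WT, and 64.3, 37.1 and 89.2 CPM in HoipA-KO. HoipA-KO libraries were far below all WT libraries, with group means that came to 8.44% of WT on CD and 11.2% on HFD. Pck1 fell by 3.53 ± 0.48 on the log2 scale (adjusted p = 0.000785) on CD and by 3.14 ± 0.45 (adjusted p = 0.00871) on HFD. It was called on both diets in all leave-one-out fits, where its log2 fold change stayed between -3.99 and -2.86 on CD and between -3.48 and -2.88 on HFD.

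Gpam (chr19:55067268-55127238, minus strand), the mitochondrial glycerol 3-phosphate acyltransferase, carries out the first acylation. Gpam levels were 318, 194 and 117 CPM in WT CD and 57.3, 38.9 and 48.2 CPM in HoipA-KO CD. On HFD they were 205, 163 and 124 CPM in WT and 76.5, 35.6 and 63.1 CPM in HoipA-KO. The groups did not overlap, and Gpam fell by 2.37 ± 0.34 on the log2 scale (adjusted p = 0.000947) on CD and by 1.48 ± 0.31 (adjusted p = 0.0216) on HFD.

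The next acylation is the work of Agpat2 (chr2:26593057-26604417, minus strand), whose human counterpart is mutated in congenital generalized lipodystrophy. It had 577, 350.2 and 210.1 CPM in WT CD and 169, 87.4 and 199 CPM in HoipA-KO CD, where WT CD replicate 3 and HoipA-KO CD replicate 3 nearly met. On HFD Agpat2 had 655, 589 and 429 CPM in WT and 198, 90.3 and 194 CPM in HoipA-KO. Agpat2 log2 fold changes were -1.58 ± 0.41 (adjusted p = 0.0149) on CD and -1.78 ± 0.38 (adjusted p = 0.0226) on HFD.

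Lpin1 (chr12:16535669-16610966, minus strand) encodes lipin 1, the phosphatidic acid phosphatase that yields diacylglycerol and also acts as a transcriptional coregulator. Lpin1 levels were 593, 209 and 527 CPM in WT CD and 121, 77.4 and 96.0 CPM in HoipA-KO CD. The 2 WT CD libraries of the main comparison differed more from each other in Lpin1 than any 2 libraries of another group, and still neither met a HoipA-KO library. On HFD Lpin1 had 437, 292 and 316 CPM in WT and 104, 81.7 and 79.5 CPM in HoipA-KO. The log2 fold changes of Lpin1 were -1.99 ± 0.38 (adjusted p = 0.00361) on CD and -1.96 ± 0.36 (adjusted p = 0.0141) on HFD. On CD the value without WT CD replicate 1, with 1 WT CD library left, was -1.05.

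Mogat1 (chr1:78510991-78538173, plus strand) encodes a monoacylglycerol acyltransferase, of the route that re-esterifies monoacylglycerol. It had the lowest level of the 9 genes per kilobase of exon and the lowest HoipA-KO to WT ratio. Mogat1 had 56.9, 21.7 and 13.9 CPM in WT CD and 1.30, 0.747 and 1.78 CPM in HoipA-KO CD. On HFD it had 12.9, 14.0 and 6.05 CPM in WT and 0.947, 0.333 and 0.693 CPM in HoipA-KO. Thus the lowest WT library of either diet had more Mogat1 than the highest HoipA-KO library of either diet, and HoipA-KO means came to 3.25% of WT on CD and 5.99% on HFD. Mogat1 fell by 4.91 ± 0.59 on the log2 scale (adjusted p = 0.000519) on CD and by 4.04 ± 0.56 (adjusted p = 0.00871) on HFD, and it was called on both diets in all leave-one-out fits and over all 12 libraries.

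The last acylation is shared by Dgat1 (chr15:76502015-76511953, minus strand), an enzyme of the endoplasmic reticulum known for re-esterification of fatty acids, and Dgat2 (chr7:99153658-99182719, minus strand), an unrelated enzyme tied to newly made fatty acids. Dgat1 had 239, 126 and 104 CPM in WT CD and 67.0, 50.4 and 85.5 CPM in HoipA-KO CD. On HFD its levels were 153, 178 and 126 CPM in WT and 67.6, 43.5 and 77.8 CPM in HoipA-KO. Dgat1 log2 fold changes were -1.39 ± 0.32 (adjusted p = 0.00902) on CD and -1.26 ± 0.30 (adjusted p = 0.0301) on HFD.

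Dgat2 had 2159, 940.3 and 859 CPM in WT CD and 505, 451 and 704 CPM in HoipA-KO CD. On HFD its levels were 2637, 2446 and 1696 CPM in WT and 721, 254 and 649.8 CPM in HoipA-KO. The genotypes did not overlap for either gene on either diet. Dgat2 log2 fold changes were -1.45 ± 0.46 (adjusted p = 0.0335) on CD and -2.05 ± 0.43 (adjusted p = 0.022) on HFD, and the call of Dgat2 on CD was lost over all 12 libraries (-1.25, adjusted p = 0.056) and without WT CD replicate 1 (-0.73, adjusted p = 0.282).

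Per kilobase of exon (union of the exons of a gene in GENCODE M21, which may differ from the annotation of the counts), the order of levels in WT HFD was Dgat2 with 733 ± 161 CPM per kb (SD, n = 3), Gpd1 with 381 ± 54.3, Agpat2 with 262 ± 54.7, Pck1 with 165 ± 27.2, Acsl1 with 141 ± 18.7, Dgat1 with 49.8 ± 8.46, Lpin1 with 36.1 ± 8.04, Gpam with 24.6 ± 6.09 and Mogat1 with 7.05 ± 2.77 CPM per kb. Of neighbours in this order, the intervals of mean ± SD overlapped for Pck1 and Acsl1, for Dgat1 and Lpin1, and for Lpin1 and Gpam. In HoipA-KO HFD the same scale gave Dgat2 176 ± 81.5, Gpd1 134 ± 29.2, Agpat2 75.5 ± 28.7, Acsl1 42.8 ± 15.1, Dgat1 20.6 ± 5.76, Pck1 18.5 ± 7.59, Lpin1 9.16 ± 1.42, Gpam 8.77 ± 3.13 and Mogat1 0.422 ± 0.198 CPM per kb. There these intervals overlapped for the neighbours Dgat2 and Gpd1, Agpat2 and Acsl1, Dgat1 and Pck1, and Lpin1 and Gpam. On CD Pck1 ranked differently, with 541 and 248 CPM per kb in the 2 WT libraries, beside 700.3 and 305 for Dgat2, 386 and 200.0 for Gpd1 and 134 and 82.1 for Acsl1. In HoipA-KO CD Pck1 had 42.5, 17.6 and 39.8 CPM per kb, beside 48.8, 33.7 and 40.7 for Acsl1 and 21.9, 16.5 and 28.0 for Dgat1.

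Between the diets fewer of these genes were called. In WT, HFD against CD gave 1 call among the 9, Mogat1, which was lower by a log2 fold change of -1.83 ± 0.53 (adjusted p = 0.0473; 5.47% of all genes tested were called lower). This call was lost over all 12 libraries (-1.49, adjusted p = 0.103), where 5.97% of all genes were called lower and 9.05% higher, and without any of 7 libraries, namely WT CD replicate 1 (-0.96, adjusted p = 0.254), HoipA-KO CD replicates 1 and 2, HoipA-KO HFD replicate 3 and WT HFD replicates 1, 2 and 3 (-2.03 to -1.61 on leaving out each of the last 6). Pck1 had a log2 fold change of -1.24 ± 0.46 (adjusted p = 0.0958), and it ran from -1.70 to -0.56 on leaving out each library. Over the 11 libraries Pck1 and Mogat1 were lower in each WT HFD library than in either WT CD library, as were 18.7% of all genes, and with WT CD replicate 3 both overlapped. The other 7 genes lay between -0.63 and 0.56, of which Dgat2 ran from 0.078 to 1.29 on leaving out each library. In HoipA-KO none of the 9 was called, nor was any of the 18427 genes tested (0.00% called); 415 genes had an unadjusted p below 0.05 in edgeR, and DESeq2's Wald test called 7 genes. There the 9 log2 fold changes ran from -0.95 for Mogat1 to 0.27 for Gpam. The interaction of genotype and diet was called for none of the 9, against 3.91% of all genes (2.78% over all 12 libraries), and its estimates ran from -0.60 ± 0.63 for Dgat2 to 0.89 ± 0.45 for Gpam (adjusted p = 0.605 and 0.274). The SEs of the 9 interaction estimates ran from 0.39 to 0.75, so a difference between the diets in the genotype effect had to be large to be detectable.

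**Figure D3:**
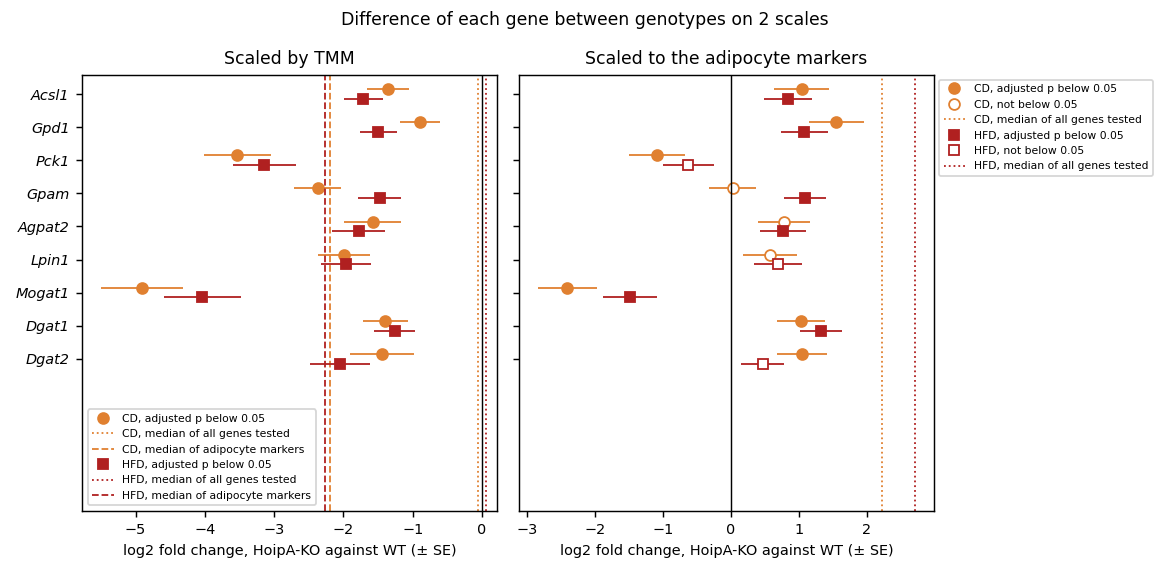
Log2 fold changes of HoipA-KO against WT with their SE for the 9 genes on CD (circles) and HFD (squares), with libraries scaled by TMM (left) or to the adipocyte markers (right); filled symbols have an adjusted p below 0.05, dotted lines are medians of all genes tested and dashed lines medians of the 8 adipocyte markers. On the left all symbols are filled and below 0, and on the right Mogat1 is below 0 on both diets while all other genes except Pck1 are above 0.

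The adipocyte markers fell as well. All 8 were called lower on either diet (18.8% and 7.62% of all genes), with medians of -2.20 on CD and -2.27 on HFD, and Adrb3, the adrenergic receptor that triggers lipolysis, had the lowest ratio (log2 fold changes of -5.44 and -4.23). Their summed level was 15948, 6420.2 and 5116 CPM in WT CD, 2594, 1816 and 2830.2 CPM in HoipA-KO CD, 11199.6, 10344 and 8255 CPM in WT HFD, and 2487, 1343 and 2229 CPM in HoipA-KO HFD. Cidec, a lipid droplet protein, had the highest mean CPM of them. HoipA-KO HFD replicate 2 had the lowest sum of the 12 libraries, and it also had the lowest level in its group of each of the 9 genes except Lpin1. Without it 4 of 8 markers were called on HFD (1.35% of all genes called lower), without WT HFD replicate 1 also 4 of 8 (1.30%) and without WT HFD replicate 2 5 of 8 (1.60%), and without WT CD replicate 1 it was 6 of 8 on CD (20.2%). The 12 libraries together had 7 of 8 called on each diet (19.1% on CD and 2.25% on HFD).

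Macrophage markers moved the other way. All 8 (Adgre1, Cd68, Lgals3, Itgax, Trem2, Gpnmb, Csf1r and Lyz2) were called higher on CD (18.9% of all genes), with a median of 5.39, and Cd68, Lgals3 and Trem2 were called higher on HFD (4.20% of all genes), with a median over the 8 of 1.46. The count on HFD was 0 of 8 over all 12 libraries (0.531% of all genes called higher). It was also 0 of 8 without any of 7 libraries, namely HoipA-KO CD replicates 1, 2 and 3, HoipA-KO HFD replicates 2 and 3 and WT HFD replicates 1 and 2 (0.207% to 3.05% of all genes called higher, 0.354% without HoipA-KO HFD replicate 2), and 7 of 8 without WT HFD replicate 3 (6.25%). Their summed level was 626, 524 and 356 CPM in WT CD and 18977, 24735 and 19301 CPM in HoipA-KO CD. In WT HFD it was 2363, 4904 and 9069 CPM and in HoipA-KO HFD 10961, 22697 and 12859.8 CPM, with the highest mean CPM over the libraries in Gpnmb, a glycoprotein of lipid-laden macrophages. Gpnmb was not the highest in WT CD, where it had 26.3, 32.6 and 13.5 CPM and Lyz2 301, 231 and 188 CPM. None of the 8 was at 0 in any library. The part of these cell type shifts in the changes of the 9 genes was not tested. The scaling that follows moves all genes of a library alike and is no test of it.

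To set the 9 genes beside the adipocyte markers, each library was scaled to the geometric mean CPM of the 8 markers in place of TMM. On this scale 74.3% of all genes were called higher in HoipA-KO on CD and 91.8% on HFD, with medians over all genes of 2.23 and 2.71, whereas 1.75% and 0.0597% were called lower. Of the 9 genes, 4 were called higher on CD (Gpd1, Acsl1, Dgat1 and Dgat2) and 5 on HFD (Gpd1, Acsl1, Dgat1, Agpat2 and Gpam), which are smaller shares than among all genes. Their medians were 0.78 and 0.77. Mogat1 was lower relative to the mean of the markers on both diets, by log2 fold changes of -2.41 ± 0.43 (adjusted p = 0.000801) on CD and -1.49 ± 0.40 (adjusted p = 0.0039) on HFD. Among the 8 markers only Adrb3 fell more than Mogat1 with TMM. Adrb3 had -5.44 on CD and -4.23 on HFD, beside -4.91 and -4.04 for Mogat1. Pck1 was lower on CD (-1.09 ± 0.41, adjusted p = 0.0299) and had -0.63 ± 0.38 on HFD (adjusted p = 0.129).

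Another denominator moves all genes alike and was tried to see which calls hold. Relative to the 8 markers, Gpd1 had the highest log2 fold change of HoipA-KO against WT on CD (1.55 ± 0.41, adjusted p = 0.00444). On HFD it was that of Dgat1 (1.33 ± 0.31, adjusted p = 0.00149). With Plin1 alone as the denominator only Gpd1 stayed called higher on CD (1.03, adjusted p = 0.0315) and only Dgat1 on HFD (0.77, adjusted p = 0.0302), while Mogat1 (-2.94 and -2.04) and Pck1 (-1.62 and -1.17) were called lower on both. With this denominator 62.4% of all genes were called higher on CD and 84.7% on HFD, and 2.57% and 0.266% lower. With Adipoq alone Mogat1 had -2.23 on CD and -1.23 on HFD, both called, and 5 and 7 of the 9 were called higher, which are smaller shares than the 79.4% and 93.9% of all genes (1.45% and 0.0434% were called lower). With the 8 markers and without WT CD replicate 1, 1 of 9 was called higher on CD (56.3% of all genes), and without HoipA-KO CD replicate 3 it was 2 of 9 (71.6%). On HFD 2 of 9 were called higher without WT HFD replicate 1 (89.7% of all genes), and 3 of 9 without WT HFD replicate 2 (87.0%), HoipA-KO HFD replicate 1 (88.9%), or HoipA-KO CD replicate 1 (90.7%) or 3 (91.0%). The calls lower on CD went from 2 to 1 without WT CD replicate 1 (7.20% of all genes called lower) or 2 (0.168%) or HoipA-KO CD replicate 2 (0.898%) or 3 (1.20%), where Mogat1 was the one that remained.

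Several of the 9 genes have paralogs that catalyse the same step, which gives a comparison that needs no scaling between libraries. Dgat2 was set against Dgat1, which is no paralog of it but catalyses the same reaction. The log2 ratio of each gene to the summed CPM of its paralogs, or to Dgat1, was compared between genotypes with a two-sided exact permutation test of the mean within-diet difference, over 200 arrangements of the 11 libraries, adjusted over 7 ratios. The smallest p that this design gives is 0.005. Acsl1 to the other long-chain synthetases (Acsl3, Acsl4, Acsl5 and Acsl6) was lower in HoipA-KO by 1.57 on CD and 1.92 on HFD, with a mean log2 difference of -1.75. Agpat2 to the other Agpat genes had -1.49, Lpin1 to Lpin2 and Lpin3 -2.09, Pck1 to its mitochondrial paralog Pck2 -3.57, and Gpam to Gpat2, Gpat3 and Gpat4 -0.73. Each of these 5 ratios had an exact permutation p = 0.005 (adjusted p = 0.007) and was below every WT library of its diet among the 11 in 6 of 6 HoipA-KO libraries.

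Gpd1 to Gpd1l had a mean log2 difference of -0.99 (exact permutation p = 0.015, adjusted p = 0.0175), with -0.52 on CD, where the genotypes overlapped, and -1.46 on HFD, where they did not. Dgat2 to Dgat1 had -0.43 (exact permutation p = 0.06, adjusted p = 0.06), made up of 0.00 on CD and -0.87 on HFD, and the difference between the diets was not tested. Over all 12 libraries the Gpam ratio was no longer past the threshold (-0.41, exact permutation adjusted p = 0.29). WT CD replicate 3, which had the sperm transcripts, also had the highest Gpat2 and Gpat4. Several paralogs are transcribed in other cells of the tissue as well, so a change in the enzyme used by adipocytes and a change in the cells present cannot be told apart in these ratios.

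**Figure D4:**
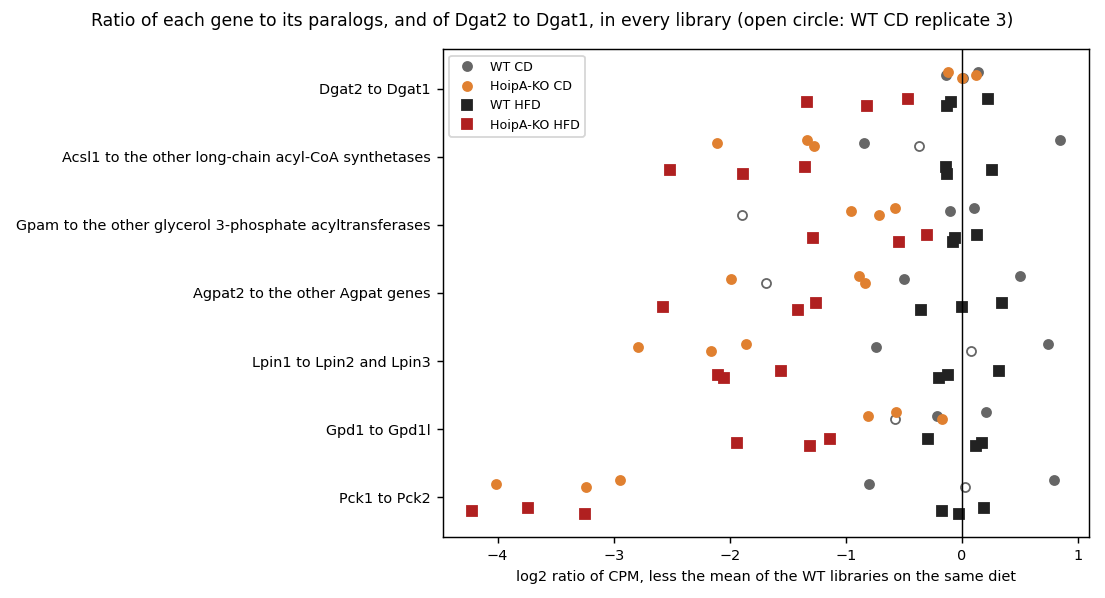
Log2 ratio of CPM of each gene to its paralogs, and of Dgat2 to the unrelated Dgat1, in every library, less the mean of the WT libraries on the same diet (circles CD, squares HFD; grey and black WT, orange and red HoipA-KO; open circle WT CD replicate 3, not in the mean). The HoipA-KO libraries lie to the left of WT for Acsl1, Gpam, Agpat2, Lpin1 and Pck1, except that WT CD replicate 3 falls among or below them for Gpam and Agpat2.

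Of 23 further genes of the pathway, 21 had enough counts to be tested. Gpat2 and Dgat2l6 were not tested, and Dgat2l6, a relative of Dgat2, was listed at 0 in all 12 libraries. On CD 7 of 21 were called lower and 4 higher, with a median of -0.61, beside 18.8% and 18.9% of all genes. On HFD 5 of 21 were called lower and 1 higher, with a median of -0.04, beside 7.62% and 4.20%. Over all 12 libraries 9 fell and 3 rose on CD (19.1% and 15.6% of all genes), and 3 fell and 0 rose on HFD (2.25% and 0.531%). Without WT CD replicate 2 they were 8 and 3 on CD (15.7% and 16.0% of all genes) and 6 and 4 on HFD (11.2% and 8.67%). Without WT CD replicate 1 they were 10 and 4 on CD (20.2% and 18.1%) and 6 and 4 on HFD (10.5% and 7.09%). On HFD they were 5 and 2 without HoipA-KO HFD replicate 1 (7.21% and 4.29%) and 1 and 0 without HoipA-KO HFD replicate 2 (1.35% and 0.354%).

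Among the suppliers of glycerol 3-phosphate, Pcx, the mitochondrial pyruvate carboxylase that feeds glyceroneogenesis, had the highest mean CPM of the 23 genes over the 11 libraries (446 CPM). It had 1100.0, 654 and 347 CPM in WT CD, 194, 134 and 229 CPM in HoipA-KO CD, 671, 787 and 611 CPM in WT HFD, and 219, 117 and 194 CPM in HoipA-KO HFD. The Pcx log2 fold change was -2.20 ± 0.32 (adjusted p = 0.000996) on CD and -1.95 ± 0.30 (adjusted p = 0.00976) on HFD. Aqp7, the channel through which glycerol leaves and enters fat cells, fell by 1.43 ± 0.30 on CD and by 1.65 ± 0.28 on HFD (log2 scale; adjusted p = 0.00543 and 0.0116). Gpd2, the mitochondrial glycerol 3-phosphate dehydrogenase, fell by 1.77 ± 0.22 on CD (adjusted p = 0.000571) and had -0.43 ± 0.20 on HFD (adjusted p = 0.169). WT CD replicate 3 had 313 CPM of Gpd2, where no other library exceeded 70.4 CPM, and over all 12 libraries the value on CD was -3.03 (adjusted p = 0.00389). Glycerol kinase (Gk, named after its values were seen) had 207 CPM in WT CD replicate 2, the library with epididymal RNA, and between 8.46 and 29.5 CPM elsewhere, and its log2 fold change on CD missed the threshold (-2.49 ± 0.89, adjusted p = 0.0513).

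In the acylation of glycerol 3-phosphate, Gpat3, an isoform of the endoplasmic reticulum, fell by 2.28 ± 0.36 (adjusted p = 0.00154) on CD and by 1.92 ± 0.34 (adjusted p = 0.0137) on HFD on the log2 scale. Its levels were 157, 87.2 and 62.3 CPM in WT CD against 30.0, 14.8 and 29.0 CPM in HoipA-KO CD, and 92.1, 70.1 and 47.8 CPM in WT HFD against 21.4, 15.0 and 18.5 CPM in HoipA-KO HFD. Gpat4 fell by 1.34 ± 0.15 on CD (adjusted p = 0.000452) and had -0.41 ± 0.13 on HFD (adjusted p = 0.0697). In the next step Agpat4 rose. It had 8.21, 7.58 and 17.4 CPM in WT CD and 34.1, 40.5 and 38.9 CPM in HoipA-KO CD, and 12.7, 14.3 and 19.4 CPM in WT HFD and 23.0, 35.5 and 27.4 CPM in HoipA-KO HFD. Its log2 fold changes were 2.31 ± 0.25 (adjusted p = 0.000452) and 0.91 ± 0.21 (adjusted p = 0.0267), opposite to those of Agpat2. On HFD Lpin3 fell by 1.04 ± 0.25 (adjusted p = 0.0331) and Mogat2, the intestinal-type monoacylglycerol acyltransferase, by 2.37 ± 0.65 (adjusted p = 0.0445). On HFD the calls of Agpat4, Lpin3 and Mogat2 were lost over all 12 libraries (adjusted p = 0.148, 0.078 and 0.0783) and without HoipA-KO HFD replicate 2 or 3 or WT HFD replicate 1 or 2. That of Lpin3 was also lost without HoipA-KO CD replicate 1 and that of Mogat2 without HoipA-KO CD replicate 1 or 2, while that of Gpat3 was lost without HoipA-KO HFD replicate 2 or WT HFD replicate 1 and that of Aqp7 without HoipA-KO HFD replicate 2. Between the diets in WT, 3 of 21 were called, Gpd2 (-1.38 ± 0.22, adjusted p = 0.00667) and Gpat4 (-0.89 ± 0.15, adjusted p = 0.00695) lower and Agpat4 higher (0.99 ± 0.24, adjusted p = 0.0258) on HFD, where 5.47% of all genes were called lower and 9.35% higher. With 12 libraries 5 of 21 were called lower and 0 higher (5.97% and 9.05% of all genes), with -2.61 for Gpd2 (adjusted p = 0.0171), -1.42 for Gpat4 (adjusted p = 0.0138) and 0.49 for Agpat4 (adjusted p = 0.314). The call of Agpat4 was also lost without HoipA-KO CD replicate 3, HoipA-KO HFD replicate 3, WT CD replicate 2 or WT HFD replicate 2 or 3, and without WT CD replicate 1 there were 8 lower and 2 higher (15.3% and 14.5% of all genes).

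**Figure D5:**
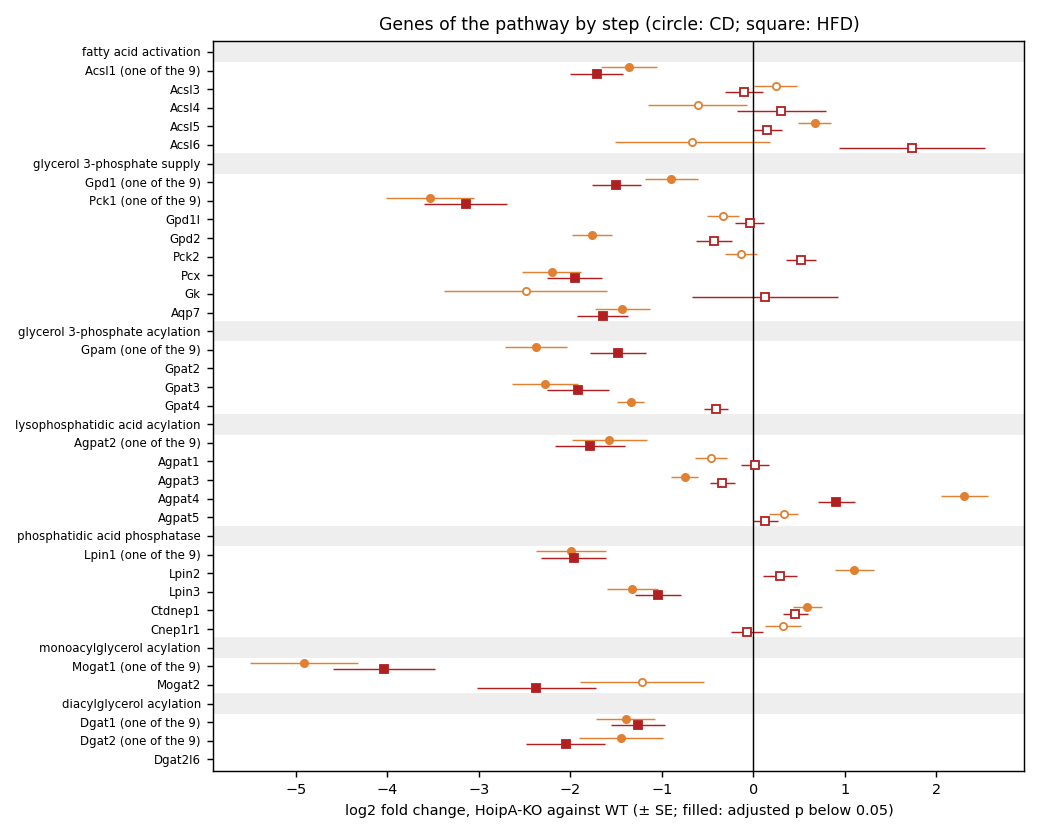
Log2 fold changes of HoipA-KO against WT with their SE for the genes of the pathway, grouped by step (circles CD, squares HFD; filled, adjusted p below 0.05; Gpat2 and Dgat2l6 were not tested). The 9 genes are filled and below 0 in all steps, while Agpat4 is filled and above 0 on both diets and Acsl5, Lpin2 and Ctdnep1 on CD.

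Of 10 transcription factors and coregulators of fat metabolism, 5 were called lower on CD (18.8% of all genes) and 3 on HFD (7.62%), none higher. Pparg had 312, 144 and 83.8 CPM in WT CD and 99.3, 67.4 and 84.4 CPM in HoipA-KO CD, and 228, 149 and 139 CPM in WT HFD and 78.0, 71.8 and 86.6 CPM in HoipA-KO HFD. Pparg log2 fold changes were -1.41 ± 0.32 (adjusted p = 0.00821) on CD and -1.11 ± 0.29 (adjusted p = 0.0407) on HFD. Mlxipl, which encodes the carbohydrate response factor ChREBP, had -2.50 ± 0.59 and -2.08 ± 0.55 (adjusted p = 0.00988 and 0.0408). Srebf1, the sterol response factor, had -1.35 ± 0.24 and -0.79 ± 0.22 (adjusted p = 0.00261 and 0.0479). On CD the calls also took in Ppargc1a, a coactivator of oxidative metabolism (-1.76 ± 0.31, adjusted p = 0.00233), and Cebpa, which acts beside PPARγ (-1.24 ± 0.37, adjusted p = 0.0265), and Cebpa had -1.14 ± 0.34 on HFD (adjusted p = 0.0587). Over all 12 libraries these counts were 3 on CD (19.1% of all genes) and 0 on HFD (2.25%). Without HoipA-KO HFD replicate 1 (7.21%) or replicate 2 (1.35%) they were 0 on HFD, without WT CD replicate 1 (10.5%) or replicate 2 (11.2%) they were 5 on HFD, and without WT CD replicate 1 there were 2 lower and 1 higher on CD (20.2% and 18.1%). On HFD the calls of Pparg, Mlxipl and Srebf1 were lost without 8, 7 and 8 of the 11 libraries, and all 3 held without WT CD replicate 1 or replicate 2. On CD those of Pparg, Mlxipl and Cebpa were lost without WT CD replicate 1, and that of Cebpa also without HoipA-KO CD replicate 1 or 2.

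Of 7 genes of fatty acid uptake, 2 were called lower and 1 higher on CD, beside 18.8% and 18.9% of all genes. Fabp4, the abundant fatty acid binding protein of adipocytes, fell by 1.82 ± 0.36 (adjusted p = 0.00416) on CD and by 1.61 ± 0.33 (adjusted p = 0.0204) on HFD on the log2 scale. Gpihbp1, which anchors lipoprotein lipase in capillaries, fell by 1.77 ± 0.39 on CD (adjusted p = 0.00739), a call that was lost without WT CD replicate 1. Fabp5, a binding protein that macrophages also make, rose by 1.70 ± 0.29 on CD (adjusted p = 0.00191). Lpl, the lipoprotein lipase, with the highest mean CPM of the list, had log2 fold changes of -0.52 ± 0.36 (adjusted p = 0.283) on CD and -0.86 ± 0.33 (adjusted p = 0.112) on HFD. On HFD 1 of 7 was called lower and none higher (7.62% and 4.20% of all genes). This was 0 of 7 over all 12 libraries (2.25% and 0.531%) or without HoipA-KO HFD replicate 2 (1.35% and 0.354%) or 3 (2.42% and 0.584%) or WT HFD replicate 1 (1.30% and 0.230%) or 2 (1.60% and 0.207%), and 3 of 7 without WT CD replicate 1 (10.5% lower and 7.09% higher) or 2 (11.2% and 8.67%).

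The 9 genes varied together across the 11 libraries. Pearson's r of each with the mean of the other 8 (log2(CPM + 1), z-scored) was between 0.924 for Mogat1 and 0.976 for Dgat1. Among the genes outside the lists that were most like their mean, of 9799 with a mean of at least 10 CPM, were Plaat3 (a phospholipase abundant in fat cells) with r = 0.999, Gstz1 with 0.995, Tmem120b with 0.995 and Rad51d with 0.993, over 11 libraries. These values share libraries, depth and the group differences, and describe likeness only.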

How the data were processed

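GWAT RNA of 12 libraries, 3 per group, was compared. The deposited table holds estimated counts per gene (88.5% of values whole numbers) that the authors made with Trim Galore 0.6.7, STAR 2.7.10a and Salmon 1.5.2 on GRCm38, per the labels. The deposited tables of the authors' DESeq2 1.38.1 comparisons (log2 fold changes, p-values and CPM of protein-coding genes) were not used.

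The counts were rounded and tested with edgeR 4.0.16 (R 4.3.3, limma 3.58.1). Genes were filtered with filterByExpr, libraries were scaled by TMM, and the 4 groups entered 1 quasi-likelihood model (prior count 0.125) without the replicate number, leaving out WT CD replicate 3 as the study did. p-values were adjusted by Benjamini-Hochberg over all genes, with calls below 0.05. This procedure was tested on simulated data with the same spread for all genes and no library with foreign RNA. That test therefore does not cover the uneven WT CD libraries seen here. In the scaling to adipocyte markers, the geometric mean CPM of the 8 markers took the place of TMM. DESeq2 1.42.0 served as an alternative, beside other normalizations, filters, thresholds and libraries. Totals of 30513500 to 60540260 counts set a floor of 3 counts per library, which covers counting error only. No count column lacked a sample.

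The 9 genes, the other lists and the tests were chosen with earlier results of these data known. All 9 genes were named, and of the other pathway genes, the regulators and the genes of fatty acid uptake those called in a comparison (the 6 with the largest change where more than 6 were called and the mean was at least 1 CPM) and the one with the highest mean CPM. Genes of the marker lists were outside this rule and named after their values were seen. Of the genes most like the 9, the 5 with the highest r were to be named, of which 1 is not reported here. Exon lengths and coordinates came from GENCODE M21, promoters from RefSeq.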

Additional observations from a re-analysis of the deposited data

Results flagged for a closer look

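The genotype effect differed between the diets for all 8 macrophage markers, where 3.91% of all genes were called. The test was of the interaction of genotype and diet in edgeR's quasi-likelihood model over 11 libraries. The log2 interaction estimates were -4.00 for Adgre1, -4.29 for Cd68, -2.52 for Csf1r, -6.01 for Gpnmb, -5.09 for Itgax, -3.27 for Lgals3, -3.21 for Lyz2 and -4.50 for Trem2, with adjusted p-values of 0.0256 to 0.0337. Over all 12 libraries the 8 markers were called as well, at adjusted p-values of 0.0131 to 0.0301 (2.78% of all genes called). Without any of 7 libraries (HoipA-KO CD replicates 1, 2 and 3, HoipA-KO HFD replicates 1 and 3, WT CD replicate 2 and WT HFD replicate 2) none of the 8 was called, at adjusted p-values of 0.0573 to 0.112, in fits that called 1 to 4 genes in all. Of the 8 markers, 4 were called without WT HFD replicate 3 (226 genes called in all). With the replicate block 4 were called (377 genes), and 7 with WT CD replicates 1 and 3 (326 genes). In WT they were called higher on HFD than on CD, by log2 fold changes of 2.43 for Csf1r to 5.43 for Gpnmb.

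Among the genes of triglyceride synthesis outside the 9, the interaction was called for Agpat4 (-1.40 ± 0.31, adjusted p = 0.0431), Gpat4 (0.93 ± 0.20, adjusted p = 0.0373) and Gpd2 (1.33 ± 0.30, adjusted p = 0.0426). Over all 12 libraries none of the 3 was called, with -0.89 (adjusted p = 0.283), 1.47 (adjusted p = 0.0935) and 2.58 (adjusted p = 0.108). Col1a1, a collagen gene of fibroblasts and progenitors, had -1.91 ± 0.42 (adjusted p = 0.0406) and -2.01 over 12 libraries (adjusted p = 0.0298). None of these 4 genes was called without any of the same 7 libraries, and 1 each was called without HoipA-KO HFD replicate 2 (Agpat4), without WT HFD replicate 3 (Gpat4) and with the replicate block (Gpd2).

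A signal also stood out in WT CD replicate 3, the library that the main comparisons leave out. It had 61.6 CPM of Acsl6, a long-chain acyl-CoA synthetase, and 27.5 CPM of Gpat2, a glycerol 3-phosphate acyltransferase known from testis. In the other 11 libraries Acsl6 had at most 0.434 CPM and Gpat2 at most 0.164 CPM. The same library had the 10039 CPM of sperm and testis transcripts given above, and their part in these values was not tested.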

How the results depend on the processing

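The numbers of genes called were 6947 (HoipA-KO against WT on CD), 2179 (on HFD), 2731 (HFD against CD in WT), 0 (in HoipA-KO) and 721 (interaction). DESeq2's Wald test called 4410 on HFD, 4551 between the diets in WT, 7 in HoipA-KO and 2350 for the interaction, and 2 of the 9 genes between the diets in WT. With only the groups compared in the fit, 4208 genes were called on CD, and between the diets in WT 0 genes and 0 of the 9. At an adjusted p below 0.01 the counts were 3619 on CD, 185 on HFD, 660 between the diets in WT and 2 for the interaction, and 2 of the 9 genes on HFD and 0 between the diets in WT. With all 12 libraries 503 genes and 5 of the 9 were called on HFD, and 2715 genes and 0 of the 9 between the diets in WT. With library size alone 2785 genes and 0 of the 9 were called between the diets in WT.

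The choice of WT CD libraries was varied after seeing the data. With replicates 1 and 3, 672 genes and 5 of the 9 were called on HFD. Between the diets in WT it was 3080 genes and 0 of the 9, and for the interaction 326 genes. With replicates 2 and 3, 8264 of 19416 genes (4746 lower) and 5 of the 9 were called on CD. With this pair 1298 genes were called on HFD, and 7046 genes and 3 of the 9 between the diets in WT. For the interaction it gave 3550 genes and 1 of the 9. The cause was not tested. With replicates 2 and 3 the log2 estimate changed sign for Gpd1 on CD (0.12), between the diets in WT for Gpam (0.11) and Dgat1 (0.43), and in the interaction for Pck1 (-0.56), Lpin1 (-0.11), Mogat1 (-0.28) and Dgat1 (-0.54). Signs also changed for Dgat1 in the interaction (-0.065) and Lpin1 relative to the markers on CD (-0.12) with all 12 libraries, and for Dgat2 between the diets in HoipA-KO with library size alone (0.088). With Plin1 alone as the denominator, 1 of the 9 was called higher on each diet (62.4% and 84.7% of all genes) and 2 lower on HFD (0.266%). Gpam on CD (-0.50) and Dgat2 on HFD (-0.076) changed sign with it. The Gpam paralog ratio over 12 libraries was -0.41.

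Leaving out each library in turn gave 5082 to 7723 genes on CD, 279 to 3797 on HFD, 1045 to 5985 between the diets in WT, 0 to 0 in HoipA-KO and 1 to 3668 for the interaction. Of the 9 genes, 4 to 9 were called on CD, 3 to 9 on HFD and 0 to 1 between the diets in WT. Relative to the markers, 1 to 5 were higher and 1 to 2 lower on CD, and 2 to 5 higher on HFD. Of all genes, these fits called 11339 to 16472 higher and 32 to 1450 lower on CD, and 15959 to 18092 higher on HFD. The log2 ratio of Dgat2 to Dgat1 ran from -0.54 to -0.32. The ranges in this paragraph include the fits without WT CD replicate 1 or 2, which left 1 WT CD library. Estimates that changed sign ran, between the diets in HoipA-KO, from -0.23 to 0.24 (Acsl1), -0.19 to 0.35 (Agpat2), -0.29 to 0.092 (Dgat1), -0.28 to 0.29 (Dgat2) and -0.29 to 0.0079 (Lpin1). Between the diets in WT they ran from -0.038 to 0.70 (Agpat2), -0.64 to 0.30 (Dgat1), -0.0060 to 0.96 (Gpd1) and -0.75 to 0.77 (Lpin1). In the interaction they ran from -0.62 to 0.12 (Agpat2), -0.41 to 0.52 (Dgat1), -0.92 to 0.59 (Lpin1) and -0.29 to 0.84 (Pck1), and for Gpam relative to the markers on CD from -0.24 to 0.35.

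The main fit did not pair libraries by replicate number. Deviations of same-numbered libraries from their group means correlated with r of -0.48 to 0.37 (15 pairs, median 0.05). Those of libraries with different numbers had r of -0.42 to 0.48 (30 pairs, median -0.03). With WT CD at n = 2 its deviations mirror each other, so this check cannot exclude a pairing. With the replicate block, 8 of the 9 genes were called on CD (Gpd1 at an adjusted p of 0.0502), where 2729 of 18427 genes were called lower. On HFD 9 of the 9 were called, where 1596 of 18427 genes were called lower. Between the diets in WT 1502 genes were called, with Pck1 in place of Mogat1 among the 9, and 377 for the interaction, where Lpin1 changed sign (-0.12). With 2 or 3 pools per group and 18427 genes tested, small differences between the diets could not be resolved. The tests of single genes under settings other than leaving out a library gave 554 results on the same side of the threshold. There were 43 that lost the call, 11 that gained it and 13 that changed sign. The leave-one-out fits, where calls were also lost and signs also changed, are not in this tally.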

Other observations

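Markers of other cell types are set here beside the shares of all genes called, which were 18.8% lower and 18.9% higher on CD and 7.62% and 4.20% on HFD. Of 5 endothelial markers, Kdr, the main VEGF receptor, and Cdh5, the cadherin of endothelial junctions, were lower in HoipA-KO on both diets. Kdr had log2 fold changes of -1.60 ± 0.24 and -1.29 ± 0.22 (CD and HFD, adjusted p = 0.00117 and 0.0128), and Cdh5 had -1.27 ± 0.32 (adjusted p = 0.0132) and -1.25 ± 0.30 (adjusted p = 0.0306). With all 12 libraries Kdr held on CD alone (adjusted p = 0.0106), with an adjusted p of 0.0558 on HFD, and Cdh5 on neither diet (adjusted p = 0.0612 and 0.0964). On HFD both calls were also lost without HoipA-KO HFD replicate 2 or WT HFD replicate 1 or 2, and that of Cdh5 without HoipA-KO CD or HFD replicate 1. On CD Cdh5 was lost without WT CD replicate 1. Of 5 progenitor markers, Dcn (1.32 ± 0.34), Pdgfra (1.93 ± 0.29) and Col1a1 (2.87 ± 0.34) were higher on CD, with adjusted p-values of 0.014, 0.00117 and 0.000519, and 0 of 5 were called on HFD. The call of Dcn was lost without WT CD replicate 2. Of 4 mesothelial markers 0 were called on either diet. With 4 or 5 genes a list, counts of 0 on HFD are near the share of all genes.

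Markers of brown or beige adipocytes were low. Cidea, a lipid droplet protein of brown fat, had 5.75, 19.5 and 4.88 CPM in WT CD and at most 0.573 CPM in HoipA-KO CD, and its log2 fold changes were -4.95 ± 0.69 and -2.79 ± 0.61 (CD and HFD, adjusted p = 0.000867 and 0.0238). On HFD the Cidea call was lost over all 12 libraries (adjusted p = 0.0559) and without HoipA-KO HFD replicate 2 or 3 or WT HFD replicate 1 or 2. Ucp1 was called lower on CD (-5.65 ± 1.49, adjusted p = 0.0156) and Dio2 higher (2.71 ± 0.74, adjusted p = 0.0177), the latter not without HoipA-KO CD replicate 2 or WT CD replicate 1. The Ucp1 call was lost without HoipA-KO CD replicate 1 or 2 or WT CD replicate 2. The Ucp1 value rests on WT CD replicate 2, the library with epididymal RNA, which had 13.2 CPM. Among the epididymal markers Crisp1 was called lower on CD and carried by the same library.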
